A study of Mus musculus with 31 samples.

Results

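The mRNA levels of Cdkn1a, which encodes the cyclin-dependent kinase inhibitor p21, and of 9 further genes of the p53 response were examined in mouse embryonic stem cells (mESCs). The members were taken by name as rows of the RNA-seq table, and all 10 of them were among its 15034 genes and passed the filter of a mean of at least 1 TPM (transcript abundance corrected for gene length and scaled to the library total). They were Trp53, which encodes p53 itself, its targets Cdkn1a, Mdm2, Ccng1, Trp53inp1, Zmat3, Sesn2, Bax, Bbc3, and Phlda3. The study asked what follows when the RNA-binding protein Trim71 can no longer bind the mRNA of Ago2, the Argonaute protein that carries miRNAs. It profiled 4 genotypes by RNA-seq in 12 libraries and by small-RNA-seq in 16 libraries, and mapped Trim71 binding by CLIP-seq, a crosslinking and immunoprecipitation assay of the RNA sites that a protein holds.

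All cells derived from the ES-E14TG2a line. The study names FLAG-Trim71 knock-in cells, with the tag on both alleles of the native locus, as WT. CLIPΔ cells lack the Trim71-binding region of the Ago2 3'UTR on both alleles, Ago2 KO cells carry a deletion in Ago2 made by a pair of guides, and Ago2 KO/CLIPΔ cells carry both. The cells for profiling were grown with Lif and the inhibitors of 2i medium, which hold mESCs in the naive state. RNA-seq had 2 libraries of each genotype with Ago2 and 4 of each genotype without it, and small-RNA-seq had 4 of all. The labels call the libraries biological replicates without naming the clone of each, so the p-values measure the spread between these libraries.

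p53 is a transcription factor that is kept low by constant degradation and is stabilised by DNA damage and other stress. It then switches on genes that stop the cell cycle, such as Cdkn1a, genes that promote cell death, such as Bax and Bbc3, and genes that restrain p53 again, such as Mdm2. In mESCs, p21 is of interest because these cells cycle with a short G1 phase, and because miRNAs of the miR-290 cluster, the most abundant ones of this cell type, are known to target Cdkn1a.

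Ago2 mRNA was between 20.3 and 28.2 TPM in the 4 WT and CLIPΔ libraries and between 1.51 and 2.87 TPM in the 8 Ago2 KO and Ago2 KO/CLIPΔ libraries. Trim71 mRNA was at 34.9 TPM in both WT libraries, at 27.1 and 27.6 TPM in CLIPΔ, and between 22.5 and 28.5 TPM in the 8 libraries without Ago2. It was called lower in Ago2 KO than in WT cells (log2 fold change -0.45, limma, adjusted p = 0.00336), as were 42.4% of all tested genes. In CLIPΔ against WT cells it did not pass (-0.34, limma, adjusted p = 0.206). Markers of pluripotent stem cells summed to between 13690 and 17570 TPM in every library, while those of fibroblasts summed to at most 6.69 TPM, of primitive endoderm to at most 31.2 TPM, of mesoderm to at most 27.6 TPM, and of the 2-cell-like state to at most 3.86 TPM. Only 4 of 9 fibroblast markers and 2 of 8 markers of the 2-cell-like state had a row of their own. The sums of those lists therefore leave out most of their markers. Some of the marker sums moved with genotype. Those of neural markers were between 117.0 and 120.0 TPM in WT, 162.1 and 166.0 TPM in CLIPΔ, 164.5 and 178.4 TPM in Ago2 KO, and 126.5 and 174.9 TPM in Ago2 KO/CLIPΔ libraries. Those of trophoblast markers were between 100.6 and 106.6 TPM with Ago2 and between 58.9 and 100.7 TPM without it, and those of mesoderm markers were between 15.2 and 27.6 TPM with Ago2 and between 9.79 and 14.8 TPM without it. Their part in the results was not tested. The depth of the libraries is unknown, since only TPM values were used here. Each library had between 10692 and 11636 genes at 1 TPM or more.

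The Cdkn1a gene lies on the plus strand of chromosome 17 (mm10, chr17:29090976-29100727 in GENCODE vM21). Of the 10 genes, it was the one with Trim71 CLIP peaks, and it held 2 of the 498 peaks in the deposited list. Both lay in the 3'UTR, which is 1334 nt long at chr17:29099394-29100727 and is annotated as a single stretch after the stop codon. The first peak (chr17:29099609-29099611) held 709 reads and lay 216 to 218 nt after the stop codon, and the second (chr17:29100547-29100551) held 1549 reads and lay 1154 to 1158 nt after it. The list holds the peaks common to both immunoprecipitated replicates with 1 read number each, so these values carry no replicate error. The windows of 30 nt around the peaks are shown on the plus strand, with the bases of the peak in capitals.
first Trim71 peak of Cdkn1a: aacaaaacaaaccTAAattagtaggacggt
second Trim71 peak of Cdkn1a: cctgtttctgtaACATCctggtctggactg

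Of the 120 genes in the p53 and cell-cycle lists used here, 4 held a Trim71 peak, beside 2.05% of the 15034 genes of the RNA-seq table, matched by symbol. Among the 4 was Cdkn1a, whose peaks were known when the genes were chosen, so its place in the count was fixed. Besides Cdkn1a, these were Cdkn1b, which encodes the related inhibitor p27 (1692 reads), Cdk6, a kinase of the G1 phase (2954 reads), and Mcl1, an anti-apoptotic Bcl2 family protein (2281 reads), each with 1 peak in its 3'UTR.

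The same 3'UTR held matches to the seeds of miRNAs that are abundant in mESCs. A seed is the stretch of bases 2 to 8 at the 5' end of a miRNA, and a match is its 7-base complement in the mRNA. The matches for the miR-290/miR-302 seed (AGCACTT in the mRNA) began 435 nt and 1107 nt after the stop codon. The second was an 8mer, in which an A follows the 7 bases, and its last base lay 41 nt before the first base of the second Trim71 peak. A match for the miR-17 seed (GCACTTT) overlapped the first one. The windows of 30 nt around the matches are shown with the 7 bases in capitals, beside the miRNAs with their seeds in capitals, which were matched to RefSeq sequences by name.
Cdkn1a, first miR-290/miR-302 match: cagacctgaatAGCACTTtggaaaaatgag
Cdkn1a, second miR-290/miR-302 match: gtgggtgtcaaAGCACTTagtgggtctgac
Cdkn1a, miR-17 match: agacctgaataGCACTTTggaaaaatgagt
miR-294-3p: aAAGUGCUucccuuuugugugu
miR-295-3p: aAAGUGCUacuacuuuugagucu
miR-302d-3p: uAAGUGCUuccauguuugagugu
miR-93-5p: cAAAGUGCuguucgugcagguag
miR-17-5p: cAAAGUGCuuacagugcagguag

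**Figure D1:**
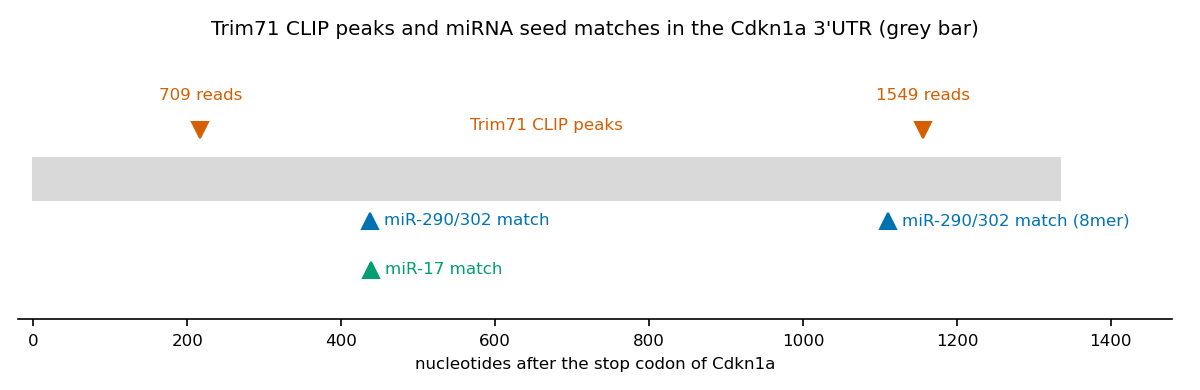
Map of the Cdkn1a 3'UTR by distance from the stop codon in nucleotides. Triangles above the grey bar mark the Trim71 CLIP peaks with 709 and 1549 reads, and triangles below mark the seed matches; the 8mer match at 1107 nt is the one nearest to a peak.

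The miR-290/miR-302 match was shared with other p53 targets. It was found in the longest annotated 3'UTR of 5 of the 10 genes, which were Cdkn1a, Ccng1, Trp53inp1, Zmat3, and Sesn2, against 17.5% of the 10838 tested genes with an annotated 3'UTR. Only Cdkn1a among the 10 held it as an 8mer, against 3.5% of those genes. The miR-17 match was found in Cdkn1a, Ccng1, Trp53inp1, and Sesn2, or 4 of 10 against 14.1%. None of the 10 held a match to the let-7 seed (CTACCTC), against 11.9%. The 3'UTRs differ in length, from 224 nt in Bax to 6692 nt in Zmat3, and a longer 3'UTR has more room for a match.
Ccng1, miR-290/miR-302 match: gttactgaaatAGCACTTctttaaattacg
Trp53inp1, miR-290/miR-302 match: atgaacagcacAGCACTTtgccaaaaaacc
Zmat3, miR-290/miR-302 match: tgggtttccgaAGCACTTggaagttccctg
Sesn2, miR-290/miR-302 match: caccaccgacaAGCACTTtgcagagcaaac

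At the other end of the genes, the window from 3000 bases before to 1000 bases after the annotated gene start was searched on both strands for the p53 consensus, which is a pair of 10-base elements. With both core tetramers whole, no spacer, and at most 2 other bases off, 2 of the 10 genes held it, against 2.64% of 11212 genes. Each of these matches had 1 base off. The match of Cdkn1a (chr17:29090928-29090947) was centred 39 bases before the gene start, and that of Ccng1 (chr11:40754936-40754955) 365 bases after it. The sequences are written on the strand of the gene, with the core tetramers in capitals. A match is a run of letters, and binding of p53 was not measured in these data.
Cdkn1a, p53 consensus match: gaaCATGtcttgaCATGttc
Ccng1, p53 consensus match: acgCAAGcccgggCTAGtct

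The comparison of Ago2 KO with WT cells addresses what changes when Ago2 is lost. The labels name neither clone nor batch, so Ago2 loss cannot be told apart from a difference of clone or batch between these libraries. In Ago2 KO cells Cdkn1a mRNA was lower, and so were Mdm2, Trp53inp1, and Zmat3, whereas Bax was higher. The level of Trp53 mRNA itself did not pass the test. With limma on log2(TPM + 1) and Benjamini–Hochberg adjustment over 11287 genes, 5 of the 10 genes passed an adjusted p of 0.05, 4 lower and 1 higher. This has to be read against a background in which 56.4% of all genes tested were called, 42.4% lower and 14% higher. The median log2 fold change was -0.39 over the 10 genes and -0.26 over all genes. When each library was instead divided by its median-of-ratios factor, which sets that median to 0, 3029 genes were called higher and 2994 lower in place of 1579 and 4785. Fold changes under this scaling are therefore given as well.

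**Figure D2:**
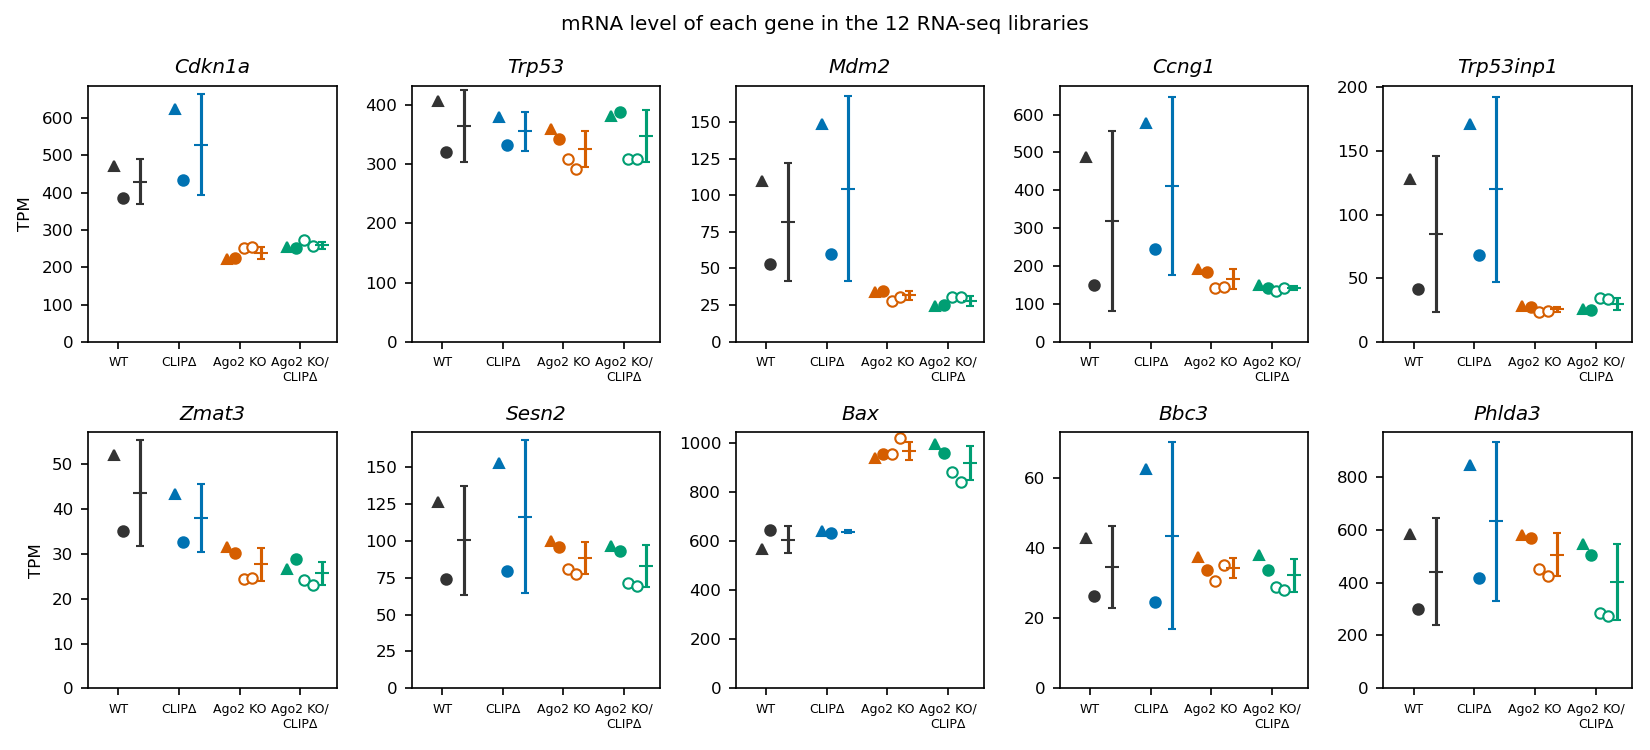
TPM of each of the 10 genes (y axes, from 0) in the 12 RNA-seq libraries by genotype, with the mean and SD of each group to the right of its points. A triangle is library 1, a filled circle library 2, and open circles libraries 3 and 4; library 1 of WT and CLIPΔ lies above library 2 for 9 of the 10 genes in both genotypes, with Bax as the exception.

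Cdkn1a was at 471 and 387 TPM in WT, at 624 and 433 TPM in CLIPΔ, at 223, 226, 251, and 255 TPM in Ago2 KO, and at 253, 251, 273, and 257 TPM in Ago2 KO/CLIPΔ libraries. Every library without Ago2 was thus below every library with it, with a gap from 273 to 387 TPM. In RNA from whole cultures, fewer cells with a transcript and less of it per cell cannot be told apart. The means fell in the order CLIPΔ (528.6 ± 135.0, SD, n = 2), WT (429.0 ± 59.9, n = 2), Ago2 KO/CLIPΔ (258.3 ± 9.93, n = 4), and Ago2 KO (238.5 ± 16.6, n = 4). Cdkn1a was 1.79-fold lower in Ago2 KO than in WT cells on the TPM + 1 scale (log2 fold change -0.84 ± 0.13, SE; adjusted p = 0.000438). Its fold change was -0.55 under the median-of-ratios scaling (adjusted p = 0.00714), and over 17 alternative settings it ranged from -0.98 to -0.55 and passed in all of them. Cdkn1a stood at the 14.4th percentile of all fold changes in this comparison.

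Among the 10 genes, those that restrain p53 include Mdm2, the ubiquitin ligase that marks p53 for degradation. Mdm2 was at 109.9 and 53.1 TPM in WT, at 148.8 and 59.8 TPM in CLIPΔ, between 27.7 and 34.5 TPM in Ago2 KO, and between 24.7 and 30.8 TPM in Ago2 KO/CLIPΔ libraries. The libraries with and without Ago2 did not overlap, although those with Ago2 spread more than 2-fold among themselves. Mdm2 was 2.38-fold lower in Ago2 KO than in WT cells (log2 fold change -1.25 ± 0.32, adjusted p = 0.00621). Without WT library 1 the value was -0.73 (adjusted p = 0.119), and with library 1 of both WT and CLIPΔ left out, which also narrows the estimated spread, it was -0.73 with an adjusted p of 0.00522. Over the 17 alternative settings the adjusted p of Mdm2 ranged from 3.19e-05 to 0.119, and 3 of them lost the call. Ccng1, which encodes cyclin G1, a partner of the phosphatase that acts on Mdm2, was at 488 and 151.3 TPM in WT, at 578 and 244 TPM in CLIPΔ, between 142.4 and 192.2 TPM in Ago2 KO, and between 134.5 and 150.1 TPM in Ago2 KO/CLIPΔ libraries. Here WT library 2 lay within the range of the Ago2 KO libraries. The fold change of Ccng1 did not pass (-0.72 ± 0.39, adjusted p = 0.135), and its sign depended on the WT library, at -1.56 without library 2, where it passed (adjusted p = 0.00281), and 0.12 without library 1 (from 6.42e-05 to 0.797 over the 17 settings).

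Trp53inp1, which encodes a stress-induced protein that promotes p53 activity and autophagy, had the largest fold change of the 10 genes with both WT libraries, but not without WT library 1. It was at 127.8 and 41.3 TPM in WT, at 171.4 and 68.4 TPM in CLIPΔ, between 23.5 and 27.8 TPM in Ago2 KO, and between 24.8 and 34.2 TPM in Ago2 KO/CLIPΔ libraries. The groups with and without Ago2 did not overlap. It was 2.78-fold lower in Ago2 KO than in WT cells (log2 fold change -1.48 ± 0.39, adjusted p = 0.00789), and without WT library 1 the value was -0.67 (adjusted p = 0.163; from 2.27e-05 to 0.163 over the 17 settings, 3 of which lost the call). Zmat3, an RNA-binding zinc finger protein, was at 52.0 and 35.2 TPM in WT, at 43.5 and 32.7 TPM in CLIPΔ, and between 23.1 and 31.5 TPM in the 8 libraries without Ago2. It passed the test in Ago2 KO against WT cells (-0.62 ± 0.17, adjusted p = 0.00989). It no longer passed under the median-of-ratios scaling (-0.34, adjusted p = 0.128) or without WT library 1 (-0.35, adjusted p = 0.169, the highest of the 17 settings, of which 4 lost the call).

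Bax, the pore-forming protein of the mitochondrial outer membrane in apoptosis, went the other way. It was at 566.6 and 645.9 TPM in WT, at 642.9 and 634.4 TPM in CLIPΔ, between 938 and 1020 TPM in Ago2 KO, and between 839.8 and 994.7 TPM in Ago2 KO/CLIPΔ libraries. Every library without Ago2 lay above every library with it. Bax was 1.6-fold higher in Ago2 KO than in WT cells (log2 fold change 0.68 ± 0.09, adjusted p = 0.000173), and 0.97 under the median-of-ratios scaling. Exons of Bax overlap those of Gm45808 on the same strand in GENCODE vM21, and those of Cdkn1a overlap a gene on the opposite strand, AC167363.2. How the authors' counting handled strand is not given in the sources used here.

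The other 4 genes did not pass the test in Ago2 KO against WT cells. Trp53 was at 408 and 321 TPM in WT and between 292.0 and 359.6 TPM in Ago2 KO libraries (-0.16 ± 0.14, adjusted p = 0.349). Sesn2, an inhibitor of mTORC1 signalling under stress, was at 126.4 and 74.1 TPM in WT and between 77.2 and 99.9 TPM in Ago2 KO libraries (-0.14 ± 0.26, adjusted p = 0.67), and it passed with library 1 of WT and CLIPΔ only (-0.52, adjusted p = 0.0479). In both genes the Ago2 KO libraries lay between the WT libraries or overlapped them. Bbc3, the BH3-only protein Puma, was at 42.8 and 26.2 TPM in WT and between 30.5 and 37.3 TPM in Ago2 KO libraries (0.02 ± 0.29, adjusted p = 0.954). Phlda3, a repressor of Akt, was at 583.7 and 298.9 TPM in WT and between 424.2 and 581.0 TPM in Ago2 KO libraries (0.26 ± 0.36, adjusted p = 0.555). The WT libraries enclosed all 4 Ago2 KO libraries in both Bbc3 and Phlda3.

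**Figure D3:**
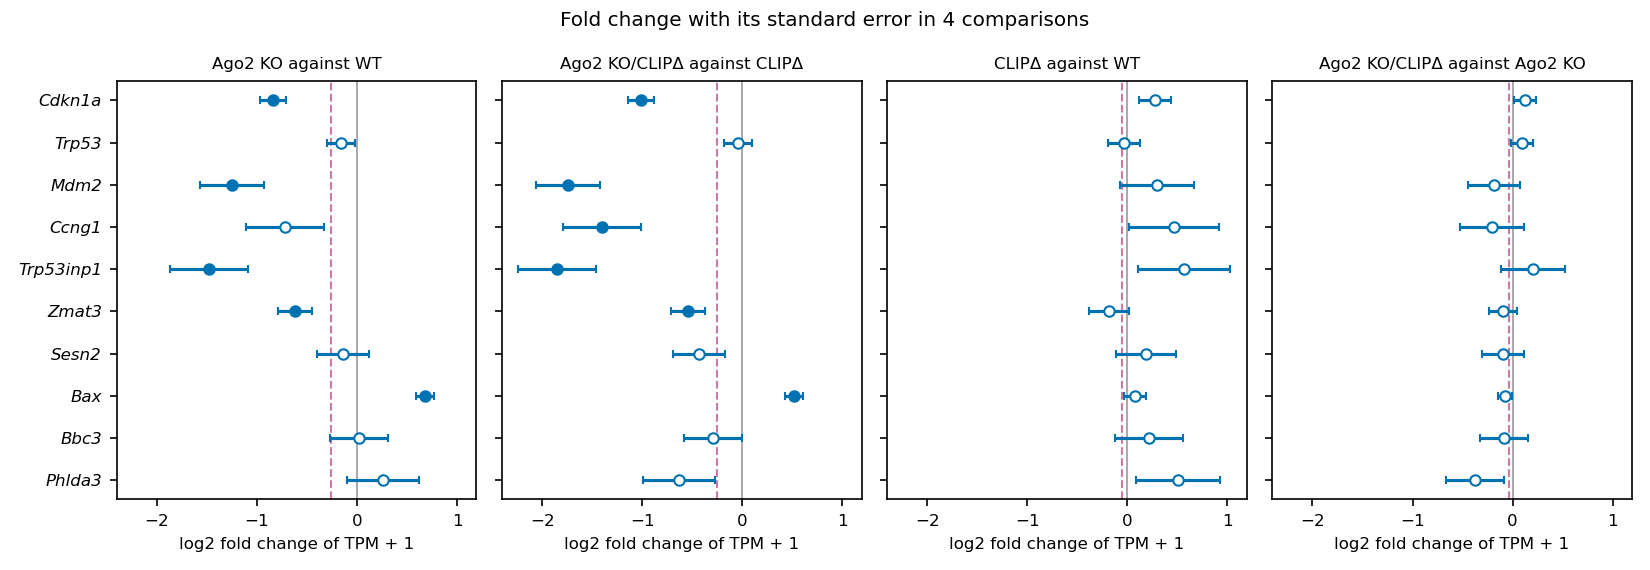
log2 fold change of TPM + 1 (x axes) of the 10 genes in 4 comparisons, with standard errors; filled points passed an adjusted p of 0.05, the grey line is 0, and the dashed line is the median of all tested genes. The filled points are 5 genes in Ago2 KO against WT and 6 in Ago2 KO/CLIPΔ against CLIPΔ, and none in the comparisons of CLIPΔ cells with their controls.

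Ago2 loss was also compared in cells that carry the CLIPΔ deletion, with other libraries on both sides. This comparison is not independent of the first. All 12 libraries share 1 fit, and WT and CLIPΔ libraries of the same number deviated alike from their group means (r = 0.715). Here too, clone and batch cannot be told apart from Ago2 loss. There, in Ago2 KO/CLIPΔ against CLIPΔ cells, 6 of the 10 genes passed, 5 lower and 1 higher, where 54.9% of all genes were called (42.1% lower and 12.8% higher). The median was -0.59 over the 10 genes and -0.25 over all genes, and the median-of-ratios scaling turned 1446 genes higher and 4755 lower into 2947 and 2917. Cdkn1a was 2.01-fold lower (-1.01 ± 0.13, adjusted p = 0.000198), and -0.72 under that scaling. Mdm2 was 3.34-fold lower (-1.74 ± 0.32, adjusted p = 0.00109), with values from -2.39 to -1.09 over 17 alternative settings, all of which passed. Trp53inp1 was 3.6-fold lower (-1.85 ± 0.39, adjusted p = 0.00244), and Ccng1 was 2.63-fold lower (-1.40 ± 0.39, adjusted p = 0.0106). Both lost the call without CLIPΔ library 1, at -1.19 (adjusted p = 0.0523) and -0.78 (adjusted p = 0.185), and over the 17 settings their highest adjusted p were 0.0666 and 0.185. Zmat3 was at -0.54 ± 0.17 (adjusted p = 0.0196), and lost the call under the scaling (-0.26, adjusted p = 0.234) and without CLIPΔ library 1 (-0.34, adjusted p = 0.224). Bax was 1.43-fold higher (0.52 ± 0.09, adjusted p = 0.00083). Phlda3 (-0.63 ± 0.36), Sesn2 (-0.43 ± 0.26), Bbc3 (-0.29 ± 0.29), and Trp53 (-0.04 ± 0.14) did not pass. Against CLIPΔ library 1 alone, Phlda3 (-1.14), Sesn2 (-0.90), and Bbc3 (-0.95) did.

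Whether a gene was below or above in every library without Ago2 needs no model, but it depends on the scaling of the libraries. It was counted here on TPM without the median-of-ratios scaling. Of the 10 genes, 4 were below in all 8 libraries without Ago2 compared with all 4 others, as were 36.4% of the tested genes, and 1 was above, as were 9.51%. The other 5 overlapped.

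Within WT and within CLIPΔ cells, the 2 libraries differed widely in the p53 targets. Library 1 was above library 2 in both genotypes for 9 of the 10 genes, as it was for 41.0% of all tested genes. Averaged over both genotypes on the log2 scale, the difference had a median of 0.92 over the 10 genes and 0.02 over all genes. The TPM of Ccng1 was 3.23-fold higher in library 1 than in library 2 of WT and 2.37-fold higher in CLIPΔ cells, and that of Trp53inp1 was 3.09-fold and 2.5-fold higher. Mdm2 (2.07-fold and 2.49-fold), Phlda3 (1.95-fold and 2.02-fold), and Bbc3 (1.63-fold and 2.54-fold) followed. Cdkn1a differed less, by 1.22-fold and 1.44-fold, and Bax had ratios of 0.877 and 1.01. Ccng1 and Trp53inp1 ranked 33 and 34 from the highest of 11287 genes in this difference, Mdm2 80, Bbc3 147, and Phlda3 152.

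The 2 genes with the highest ranks were immediate-early genes, which respond to growth factors and handling within minutes and were named here after their values were seen. Egr1 was at 2481 and 68.3 TPM in WT libraries 1 and 2, and at 1613 and 57.3 TPM in CLIPΔ libraries 1 and 2. Fos was at 458.9 and 27.9 TPM in WT and at 227.8 and 13.7 TPM in CLIPΔ libraries. The labels give no batch, date, or culture for the libraries, and what part this difference had in the levels of the p53 targets was not tested.

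**Figure D4:**
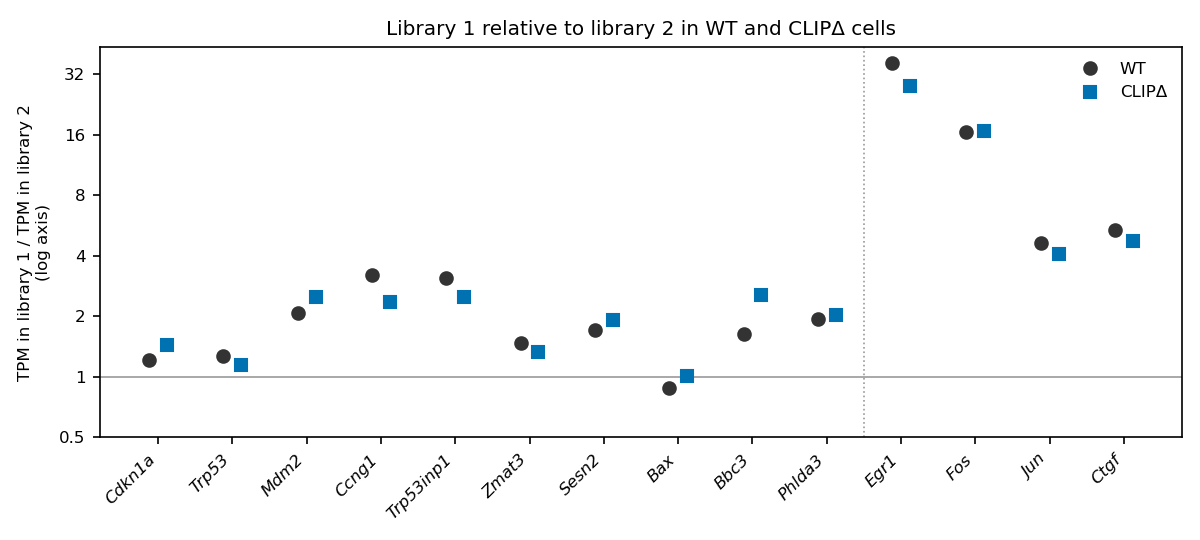
TPM in library 1 divided by TPM in library 2 (log axis) for the 10 genes and, right of the dotted line, 4 immediate-early genes, in WT (circles) and CLIPΔ cells (squares). Both genotypes show a ratio above 2 for Mdm2, Ccng1, and Trp53inp1, ratios near 1 for Bax, and the highest ratio for Egr1.

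With library 1 of both genotypes left out, so that WT and CLIPΔ cells are each represented by 1 library whose spread is assumed to be that of the Ago2 KO groups, Ago2 KO against WT cells gave -0.70 for Cdkn1a, -0.73 for Mdm2, -0.67 for Trp53inp1, and 0.58 for Bax, all past the threshold, and -0.35 for Zmat3 and 0.12 for Ccng1, which were not. In CLIPΔ cells the values were -0.74 for Cdkn1a, -1.09 for Mdm2, -1.19 for Trp53inp1, -0.78 for Ccng1, and 0.53 for Bax, all past the threshold, and -0.34 for Zmat3, which was not.

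The Ago2 KO libraries also differed between numbers 1 and 2 and numbers 3 and 4. Phlda3 averaged 525.8 TPM in Ago2 KO/CLIPΔ libraries 1 and 2 and 280.1 TPM in libraries 3 and 4, and 574.2 and 437.1 TPM in the same pairs of Ago2 KO. Sesn2, Trp53, Ccng1, Zmat3, and Bbc3 showed the same order, with libraries 1 and 2 from 1.06-fold to 1.35-fold higher, and Cdkn1a the opposite order, at 0.887 and 0.951 of libraries 3 and 4. Mdm2 and Trp53inp1 turned between the genotypes, with ratios of 1.17 and 1.15 in Ago2 KO and of 0.816 and 0.748 in Ago2 KO/CLIPΔ cells, and so did Bax (0.957 and 1.13).

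The comparison of CLIPΔ with WT cells addresses the loss of Trim71 binding to Ago2 mRNA alone. None of the 10 genes passed, at an adjusted or an unadjusted p of 0.05, where 2.27% of all genes were called (1.46% higher and 0.806% lower) and 12.9% had an unadjusted p under 0.05. The median fold change was 0.25 over the 10 genes and -0.05 over all genes. Of the 10 genes, 6 were higher in CLIPΔ than in WT cells within both library numbers, as were 24.6% of all genes. Cdkn1a was 1.32-fold higher in CLIPΔ library 1 than in WT library 1 and 1.12-fold higher in library 2 than in library 2 (0.28 ± 0.16, adjusted p = 0.496), and its fold change ranged from 0.02 to 0.55 when 1 library at a time was left out. For Trp53inp1 these ratios were 1.34 and 1.66 (0.57 ± 0.46, adjusted p = 0.688), for Phlda3 1.45 and 1.4 (0.51 ± 0.42, adjusted p = 0.694), and for Ccng1 1.18 and 1.61 (0.47 ± 0.45, adjusted p = 0.759). For Mdm2 they were 1.35 and 1.13, and for Sesn2 1.21 and 1.08. Zmat3 was lower in CLIPΔ cells in both numbers, and Trp53, Bax, and Bbc3 had ratios on both sides of 1. With the library number as a block within the libraries of the same Ago2 status, 960 genes were called in place of 256, and Ccng1 was the 1 of the 10 genes that passed (0.47, adjusted p = 0.0472).

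The same deletion was compared in cells without Ago2. In Ago2 KO/CLIPΔ against Ago2 KO cells, none of the 10 genes passed at an adjusted or an unadjusted p of 0.05, where 0.877% of all genes were called (0.275% higher and 0.602% lower) and 11% had an unadjusted p under 0.05. The fold changes ran from -0.38 ± 0.29 for Phlda3 to 0.20 ± 0.32 for Trp53inp1, and that of Cdkn1a was 0.12 ± 0.11 (adjusted p = 0.785). With the library number as a block within the libraries of the same Ago2 status, 758 genes were called in place of 99, and none of the 10 was among them. The smallest adjusted p was that of Phlda3 (-0.38 ± 0.10, adjusted p = 0.0506).

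The interaction asks whether the effect of the deletion differs between cells without and with Ago2. None of the 10 genes passed at an adjusted or an unadjusted p of 0.05, where 0.647% of all genes were called (0.0975% higher and 0.549% lower) and 8.01% had an unadjusted p under 0.05. Phlda3 (-0.89 ± 0.51, adjusted p = 0.745) and Ccng1 (-0.68 ± 0.56, adjusted p = 0.888) had the most negative values. With the library number as a block, 329 genes were called in place of 73, and these were the 2 of the 10 genes that passed (Phlda3, -0.89 ± 0.17, adjusted p = 0.0301; Ccng1, -0.68 ± 0.15, adjusted p = 0.0488). The value of Cdkn1a was -0.17 ± 0.19 (adjusted p = 0.929).

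Genes of the pathway were followed in lists of p53 targets, p53 regulators, cyclin-dependent kinase (CDK) inhibitors, partners of p21, and the Bcl2 family. These lists include genes already described above, such as Cdkn1a, Mdm2, Trp53inp1, and Bax. Their counts and medians are therefore not separate from the results above. In all, 109 genes of the lists were tested. In Ago2 KO against WT cells, 52 of them (47.7%) fell and 13 (11.9%) rose, with a median of -0.32, beside 42.4% lower, 14% higher, and a median of -0.26 over all genes. Of the same genes, 60 (55%) fell and 5 (4.59%) rose in Ago2 KO/CLIPΔ against CLIPΔ cells, with a median of -0.50, beside 42.1% lower, 12.8% higher, and a median of -0.25 over all genes. The counts of the single lists are to be read against the same shares. None passed in Ago2 KO/CLIPΔ against Ago2 KO cells. In CLIPΔ against WT cells, 4 passed, which were Ephx1 (1.09 ± 0.13), Dcxr (1.06 ± 0.13), and Gpx1 (0.66 ± 0.14), which were higher and encode an epoxide hydrolase, a carbonyl reductase, and a glutathione peroxidase, and Cdk6 (-0.61 ± 0.12), which was lower and is one of the genes with a Trim71 peak. In the interaction, 2 passed, which were Ephx1 (-1.11 ± 0.16) and Dcxr (-1.09 ± 0.16).

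Of the 18 p53 targets of cell-cycle arrest and feedback, 7 fell and 3 rose in Ago2 KO against WT cells, with a median of -0.55 (5 and 4 under the median-of-ratios scaling, median -0.30). With the CLIPΔ deletion, 14 fell and none rose, with a median of -0.94 (12 and 1 under the scaling, median -0.66). Besides Mdm2, the largest falls were those of Ckap2, a cytoskeleton-associated protein (-1.11 in the first comparison), Lif, the cytokine that supports mESC self-renewal (-1.02 and -1.83), and the kinase Plk2 (-1.96 in the second, where the first gave -0.21). Plk2 was at 248.2 and 93.8 TPM in WT, at 505.6 and 167.7 TPM in CLIPΔ, between 110.5 and 157.1 TPM in Ago2 KO, and between 59.8 and 92.5 TPM in Ago2 KO/CLIPΔ libraries. Sertad1 (0.67), Ptprv (0.45), and Ephx1 (0.29) rose in the first comparison. Ephx1 fell in the second (-0.82).

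Of the 17 tested p53 targets of cell death, 6 fell and 5 rose in Ago2 KO against WT cells, with a median of -0.14 (3 and 5 under the scaling, median 0.15). With the deletion, 7 fell and 1 rose, with a median of -0.34 (5 and 3 under the scaling, median -0.05). Pmaip1, the BH3-only protein Noxa, fell most (-1.90 and -2.31), from 18.2 and 6.72 TPM in WT and 25.1 and 7.0 TPM in CLIPΔ libraries to between 1.31 and 2.96 TPM in the libraries without Ago2. Eda2r, a receptor of the TNF receptor family, fell as well (-1.14 and -1.41), from 15.02 and 4.51 TPM in WT and 17.1 and 6.08 TPM in CLIPΔ to between 2.74 and 3.72 TPM. In both genes, library 1 was more than 2-fold above library 2 in WT and in CLIPΔ cells. Perp (0.97) and Dcxr (0.95) rose with Bax in the first comparison, and were at 0.06 and -0.14 in the second.

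Of the 17 p53 targets of metabolism and DNA repair, 6 fell and 1 rose in Ago2 KO against WT cells, with a median of -0.25 (5 and 4 under the scaling, median 0.04), and 9 fell and 1 rose in Ago2 KO/CLIPΔ against CLIPΔ cells, with a median of -0.43 (4 and 1, median -0.14). Ddit4, an inhibitor of mTORC1, fell most (-1.36 and -1.72), followed by the translesion polymerase gene Polk (-1.11 and -1.08), and Fdxr, a mitochondrial ferredoxin reductase, rose (0.82 and 0.68). Among the 24 p53 regulators, 19 fell and none rose in the first comparison, with a median of -0.52 (11 and 1 under the scaling, median -0.26), and 17 fell and none rose in the second, with a median of -0.50 (12 and none, median -0.26). Mdm4, the partner of Mdm2 that inhibits p53, was at -1.52 and -1.46. The acetyltransferase genes Ep300 (-1.16 and -0.81) and Crebbp (-1.08 and -1.05) and Usp7, which removes ubiquitin from Mdm2 and p53 (-0.97 and -1.0), fell in both.

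Of the 7 tested CDK inhibitor genes, 4 fell and 1 rose in the first comparison, with a median of -0.54 (3 and 3 under the scaling, median -0.25), and 3 fell and none rose in the second, with a median of -0.35 (3 and none, median -0.07). Cdkn1a, Cdkn2c (-0.65 and -0.70), and Cdkn2a (-0.57 and -0.65) fell in both comparisons, and Cdkn2d rose in the first (0.54; 0.08 in the second). Of the 15 tested partners of p21, 6 fell and 2 rose in the first comparison, with a median of -0.16 (3 and 4 under the scaling, median 0.13), and 6 fell and 1 rose in the second, with a median of -0.32 (4 and 4, median -0.03). Ccnd3, which encodes a D-type cyclin, rose in both (1.11 and 1.10), from 17.65 TPM in WT and 16.54 TPM in CLIPΔ to 39.08 and 36.55 TPM in the cells without Ago2. Rbl1 (-0.93 and -0.68) and Ccne2 (-0.64 and -0.75) fell in both. Of the 17 tested genes of the Bcl2 family and apoptosome, 8 fell in each comparison and 2 and 3 rose, with medians of -0.27 and -0.29 (5 fell and 3 rose under the scaling in each, medians 0.01 and -0.01). Bcl2l1, the anti-apoptotic Bcl-xL, rose with Bax (0.62 and 0.43).

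The genes whose levels followed Cdkn1a most closely over the 12 libraries, by Pearson's r of log2(TPM + 1), were Zfp600 (0.988), Cdkn2a (0.986), Rnf17 (0.984), Ifitm1 (0.981), and Nt5dc3 (0.98). The lowest r were those of Irf2bp1 (-0.987), Myo1c (-0.985), and Vkorc1 (-0.982). Among the p53 genes, Trp53inp1 (0.949), Mdm2 (0.942), Ccng1 (0.832), and Zmat3 (0.788) followed, Bax was at -0.907, and Phlda3 (0.301) and Trp53 (0.343) were lowest in size. The points share their genotypes and fall into libraries with and without Ago2, and 12.3% of the tested genes had an r of at least 0.9 with Cdkn1a.

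The miRNAs whose seeds match the Cdkn1a 3'UTR were measured in the small-RNA libraries of the same genotypes, as the sum of their values divided by the sum over all 507 miRNAs. Of these, 442 matched a RefSeq sequence by name, and 5 miRNAs had the miR-290/miR-302 seed and 6 the miR-17 seed. miR-302a-3p is a named miRNA of the table that was not matched. Both families together made up 38.3%, 37.4%, 38.8%, and 37.6% of the sum in the WT libraries A to D, and 30.0%, 37.5%, 32.2%, and 31.9% in CLIPΔ. They made up 17.5%, 16.3%, 17%, and 17% in Ago2 KO libraries 1 to 4 and 14.9%, 13.8%, 14.7%, and 14.5% in Ago2 KO/CLIPΔ. Every library without Ago2 was below every library with it, and every Ago2 KO/CLIPΔ library was below every Ago2 KO library.

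**Figure D5:**
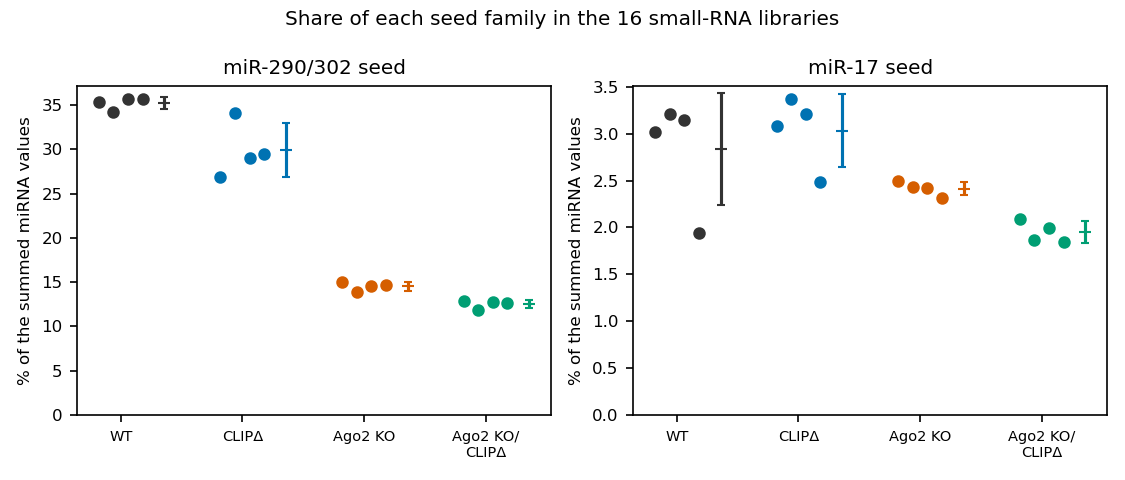
Share of the summed miRNA values (%, from 0) held by miRNAs with the miR-290/miR-302 seed (left) and the miR-17 seed (right) in the 4 small-RNA libraries of each genotype, with mean and SD. The miR-290/miR-302 share is between 34.2% and 35.7% in WT and between 11.9% and 15.0% in the libraries without Ago2; the miR-17 share is below 3.5% in every library.

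The combined share in Ago2 KO cells was 0.445 of that in WT cells (log2 ratio -1.17, n = 4 and 4, exact permutation p = 0.0286, the smallest that 4 against 4 allows). The share in Ago2 KO/CLIPΔ cells was 0.441 of that in CLIPΔ cells (log2 ratio -1.18, exact permutation p = 0.0286) and 0.854 of that in Ago2 KO cells (log2 ratio -0.23, exact permutation p = 0.0286). In CLIPΔ cells it was 0.862 of that in WT cells (log2 ratio -0.21, exact permutation p = 0.0571), which did not pass. The tests are two-sided, and over these 4 comparisons the Benjamini–Hochberg adjusted p was 0.0381 for the first 3 and 0.0571 for the last. The miR-290/miR-302 seed accounted for most of the share, with means of 35.2% ± 0.722 in WT, 29.9% ± 3.05 in CLIPΔ, 14.5% ± 0.486 in Ago2 KO, and 12.5% ± 0.429 in Ago2 KO/CLIPΔ cells (SD, n = 4). miR-295-3p alone averaged 22.5% of the sum in WT and 8.47% in Ago2 KO cells, and miR-294-3p 10.5% and 3.2%. miR-302b-3p and miR-291a-3p went the other way, from 0.0923% and 1.3% in WT to 0.783% and 1.66% in Ago2 KO cells. Of the 5 genes with a miR-290/miR-302 match, Cdkn1a, Trp53inp1, and Zmat3 were lower in both comparisons of cells without and with Ago2, Ccng1 in the 1 with the CLIPΔ deletion, and Sesn2 passed in neither. Of the 5 without a match, Mdm2 was lower and Bax higher in both, and Trp53, Bbc3, and Phlda3 passed in neither. In Ago2 KO against WT cells, 42.4% of all tested genes were called lower and 14% higher. In Ago2 KO/CLIPΔ against CLIPΔ cells these percentages were 42.1% and 12.8%. Zmat3 lost both calls under the median-of-ratios scaling. Whether a match bears on these calls was not tested. A share says nothing of the absolute amount of a miRNA, and fewer miRNAs per cell cannot be told apart from more of the others.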

How the data were processed

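The members and lists were chosen with earlier results of these data known. The authors mapped the RNA-seq and small-RNA reads to mm10 with HISAT2 2.1.0, obtained read numbers per gene with HTSeq, and deposited them as TPM (read numbers corrected for gene length and scaled to a common library total), 1 column per library. The CLIP-seq values are the authors' deposited read counts per peak, after mapping with STAR and peak calling with CLIPper over a size-matched input. Deposited peak starts count from 0 and are printed from 1. The table headers abbreviate the CLIPΔ deletion with a code that no source used here spells out. Its meaning was taken by exclusion, since every other genotype has a header of its own. The letters of WT and CLIPΔ small-RNA libraries could not be tied to the numbers of the labels.

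The 11287 of 15034 genes whose mean over the 12 libraries reached 1 TPM were tested in 1 limma fit (version 3.58.1, R 4.3.3, eBayes with trend) of 4 group means on log2(TPM + 1), and called at a Benjamini–Hochberg adjusted p under 0.05. The quasi-likelihood count test of the study needs counts and was not used. On simulated data with these numbers of libraries, 68% to 86% of 200 genes changed 2-fold and 96.5% to 99.5% of those changed 4-fold were recovered over the 4 comparisons of genotypes. The simulated libraries were independent, with the same spread of a gene in every group. In the data, most of the p53 targets differed widely between the WT and between the CLIPΔ libraries. The recovered percentages therefore do not describe such genes. miRNA shares were compared on the log2 scale by exact permutation. A pseudocount of 0.1, other filters, the scaling, subsets of libraries, and blocks were tried as alternatives.

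Deviations from the group means correlated between Ago2 KO and Ago2 KO/CLIPΔ libraries of the same number (r from 0.32 to 0.43 over 4 pairs), so the blocked values are given where they change a call or a count. They correlated as closely between number 1 of either group and number 2 of the other, and between numbers 3 and 4 likewise (r from 0.335 to 0.467). The same number was thus not singled out. The r was 0.715 between WT and CLIPΔ (2 pairs), and from -0.19 to 0.23 between these and the Ago2 KO groups. With 2 libraries in each of WT and CLIPΔ, their 2 pairs mirror each other and give 1 value. The 3'UTRs, gene starts, and sequences come from GENCODE vM21 and the mm10 genome, and miRNA sequences from RefSeq. The longest annotated 3'UTR of each gene was used.

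Named were the 10 genes, Ago2 and Trim71, the 5 genes with the highest and the 3 with the lowest r with Cdkn1a, and from each list up to 3 called genes with the largest change in each direction in the comparisons of the Ago2 KO groups. The immediate-early genes, Ephx1, Dcxr, Gpx1, and Cdk6 in CLIPΔ cells, and the genes with Trim71 peaks were named after their values were seen. Listed genes without a row of their own, such as Kitlg, Bak1, and Sox2, were not analysed here. 1 gene that the naming rule gave is not reported here.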

Additional observations from a re-analysis of the deposited data

Results flagged for a closer look

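A sample far from the others was searched for in 32 groups of 4 libraries, of which chance flags about 1 in 20. The share of the miR-17 seed family in WT was the 1 found. WT library D held 1.94% and libraries A to C held 3.02%, 3.21%, and 3.15%, so that the gap made up 0.846 of the range, above Dixon's 95% critical value for 4 samples. Its miR-290/miR-302 share (35.7%) lay at the upper end of the WT libraries.

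The effect of the CLIPΔ deletion differed between cells without and with Ago2 for Phlda3 (-0.89) and Ccng1 (-0.68) when the library number was a block, by the interaction term of that fit (limma, adjusted p = 0.0301 and 0.0488), and for neither gene without the block. Phlda3 was higher in CLIPΔ than in WT cells within both library numbers (1.45-fold and 1.4-fold), and lower in Ago2 KO/CLIPΔ than in Ago2 KO libraries of the same number in 4 of 4 pairs. Ccng1 showed the same directions, 1.18-fold and 1.61-fold higher in CLIPΔ than in WT cells and lower in 4 of 4 pairs without Ago2. The block was chosen after seeing the data, and the correlations between the Ago2 KO groups did not single out libraries of the same number.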

How the results depend on the processing

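Cdkn1a and Bax passed in Ago2 KO against WT and in Ago2 KO/CLIPΔ against CLIPΔ cells under each of 17 alternatives, and Mdm2 in the second. The limits lie in the 2 libraries each of WT and CLIPΔ cells, which differ in most of the p53 targets, and in depth, which is unknown. The number of genes called in CLIPΔ against WT cells (256) was 510 with all genes of the table, 145 with those averaging 5 TPM or more, 115 with library 2 of WT and CLIPΔ only, 0 with only the groups compared (586 at an unadjusted p under 0.05), and 960 with the replicate number as a block within Ago2 status, where Ccng1 passed (0.47, adjusted p = 0.0472). For Ago2 KO/CLIPΔ against Ago2 KO cells (99) it was 364 with only the groups compared, 180 with the block over all groups, 758 with the block within Ago2 status, 0 with replicates 1 and 2 of the Ago2 KO groups only, and 0 with replicates 3 and 4 only (1436 and 1362 at an unadjusted p under 0.05). For Ago2 KO/CLIPΔ against CLIPΔ cells (6201) it was 4033 with replicates 3 and 4 only, and for the interaction (73) it was 168 with all genes, 39 with those averaging 5 TPM or more, and 329 with the block within Ago2 status. Besides this, and Ccng1 and Phlda3 in the interaction, the blocks changed no call of the 10 genes. The block within Ago2 status and the fits with library 1 or library 2 of WT and CLIPΔ cells only were chosen after seeing the data. Without 1 library at a time, the counts ranged from 105 to 397, from 21 to 68, from 3692 to 6187, and from 51 to 144 in these 4, and from 4195 to 6479 in Ago2 KO against WT cells. The cause of these changes was not tested.

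The log2 ratio of the seed-family share in CLIPΔ against WT cells was -0.24 with the miR-290/miR-302 seed only (exact permutation p = 0.0286) and 0.12 with the miR-17 seed only (exact permutation p = 0.571). In Ago2 KO against WT cells it was -0.20 with the miR-17 seed only (exact permutation p = 0.229). Pairing Ago2 KO/CLIPΔ with Ago2 KO libraries by replicate number, as a block, left it at -0.23 with an exact sign-flip p of 0.125, the smallest that 4 pairs allow. Without 1 library at a time it ranged from -1.18 to -1.15, from -0.25 to -0.20, and from -1.22 to -1.12 in Ago2 KO against WT, Ago2 KO/CLIPΔ against Ago2 KO, and Ago2 KO/CLIPΔ against CLIPΔ cells, where 4 against 3 cannot go below 0.0571. With 8mers only, 1 of the 10 genes held a miR-290/miR-302 match and 0 a miR-17 match.

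Changes of sign were found among fold changes that did not pass. In Ago2 KO against WT cells, library 2 of WT and CLIPΔ only gave 0.12 for Ccng1, 0.24 for Sesn2, and 0.01 for Trp53, library 1 only gave -0.32 for Bbc3 and -0.22 for Phlda3, the median-of-ratios scaling gave 0.15 for Sesn2 and 0.14 for Trp53, the block over all groups gave 0.04 for Sesn2, and replicates 1 and 2 only gave 0.01 for Sesn2, and replicates 3 and 4 only -0.04 for Bbc3. In Ago2 KO/CLIPΔ against Ago2 KO cells, replicates 1 and 2 only gave 0.04 for Bax, 0.01 for Bbc3, and -0.10 for Trp53inp1, and replicates 3 and 4 only 0.07 for Mdm2. In Ago2 KO/CLIPΔ against CLIPΔ cells, library 2 only gave 0.36 for Bbc3, 0.03 for Sesn2, and 0.06 for Trp53, and Trp53 was at 0.25 under the scaling, 0.10 with the block over all groups, and 0.12 with replicates 1 and 2 only. In CLIPΔ against WT cells, library 2 only gave -0.03 for Bax, -0.09 for Bbc3, and 0.05 for Trp53, and the scaling gave 0.02 for Trp53.

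Without 1 library at a time, the fold changes whose sign turned ranged, in Ago2 KO against WT cells, from -0.32 to 0.36 for Bbc3, -1.56 to 0.12 for Ccng1, -0.22 to 0.74 for Phlda3, -0.52 to 0.24 for Sesn2, and -0.33 to 0.01 for Trp53. Those in Ago2 KO/CLIPΔ against CLIPΔ cells ranged from -0.95 to 0.36 for Bbc3, -0.90 to 0.03 for Sesn2, and -0.14 to 0.06 for Trp53. In CLIPΔ against WT cells they ranged from -0.02 to 0.17 for Bax, -0.43 to 0.88 for Bbc3, -0.38 to 1.31 for Ccng1, -0.35 to 0.95 for Mdm2, -0.28 to 0.65 for Sesn2, -0.20 to 0.14 for Trp53, -0.24 to 1.37 for Trp53inp1, and -0.45 to 0.10 for Zmat3. For the interaction they ranged from -0.97 to 0.34 for Bbc3, -1.52 to 0.17 for Ccng1, -0.43 to 0.10 for Cdkn1a, -1.14 to 0.16 for Mdm2, -0.76 to 0.17 for Sesn2, -0.05 to 0.29 for Trp53, -1.17 to 0.43 for Trp53inp1, and -0.20 to 0.35 for Zmat3.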

Other observations

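The let-7 family, for which the 10 genes hold no 3'UTR seed match, made up between 5.92% and 7.22% of the summed miRNA values in the CLIPΔ libraries, between 0.345% and 1.1% in WT, between 0.411% and 0.491% in Ago2 KO, and between 0.352% and 0.403% in Ago2 KO/CLIPΔ libraries. let-7g-5p was its most abundant member, with means of 2.91% of the sum in CLIPΔ and 0.365% in WT cells. CLIPΔ was thus the genotype in which the let-7 share was highest and the miR-290/miR-302 share (29.9% ± 3.05, SD, n = 4) was below that of WT (35.2% ± 0.722; exact permutation p = 0.0286, the smallest that 4 against 4 allows). Among the CDK inhibitors, Cdkn2a followed Cdkn1a over all 12 libraries, at 19.7 and 18.5 TPM in WT, 23.2 and 20.03 TPM in CLIPΔ, and between 11.9 and 14.3 TPM in the libraries without Ago2.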
